A study of Mus musculus with 6 samples.

Results

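Krt23, Prom1 and 7 other genes used as markers of bile duct reaction, keratin stress or fetal liver identity were followed in mouse liver on the HFC diet, which the sample names call a high-fat diet. The 9 genes were taken by symbol (Krt23, Prom1, Krt8, Krt18, Krt19, Spp1, Sox9, Cd24a and Afp), and 8 of them were measured, with 1 probe each, among 16887 named genes. Krt23, Krt19 and Sox9 lie on chromosome 11, Prom1 and Afp on 5, Krt8 and Krt18 on 15 and Cd24a on 10. Spp1, which encodes osteopontin, has no probe under that name in the annotation used here and was not analysed. Krt23 and Prom1 entered the set because their ratios to chow liver were already known to be high on these arrays, so their ratios to chow are given as a description and support nothing. Comparisons between the drug groups were tested.

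Liver RNA of 6 C57BL/6 mice was hybridised on 2-colour oligonucleotide arrays, 1 mouse per array. The groups were HFC diet with fenofibrate at 100 mg/kg, HFC diet with lovastatin at 30 mg/kg, and HFC diet with vehicle in the study's design, called HFC here, with 2 mice each. The mice were 7 weeks old, ate the diet for 12 days and were dosed by mouth once a day from day 5. Every array was hybridised against 1 pool of liver RNA from 6 chow-fed mice of the same strain, so the diet is shared by all 3 groups and the spread between chow mice is not in any value. Fenofibrate activates the nuclear receptor PPARα and lovastatin inhibits cholesterol synthesis. The lovastatin group follows the sample titles, since the treatment text of those samples names fenofibrate.

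Keratins are filament proteins that pair as a type I and a type II chain. Hepatocytes make the pair of Krt8 and Krt18, whereas bile duct cells (cholangiocytes) add Krt19 and Krt7. In injured liver, small duct-like cells that express Krt19, Sox9, Prom1 and Spp1 can spread from the portal tracts, which is called a ductular reaction, and stressed hepatocytes can themselves turn on some of these genes. In whole liver RNA, more cells of a type and more RNA per cell cannot be told apart.

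Values are ratios of mouse over pool, taken as log2, so that 0 is the level of the chow pool and 1 a doubling. That direction is likely rather than stated. Read this way, the fenofibrate arrays correlated at 0.06 to 0.32 over features with each array of the other groups. With the fenofibrate sign turned, these correlations would be negative. Results given with that sign turned show only what would hold if the direction were wrong on those arrays alone. The mouse carried the dye Cy3 on the fenofibrate arrays and Cy5 on the other 4, so fenofibrate and dye cannot be told apart in any comparison with the other groups. Array medians lay between -0.01 and 0.03. The spread over probes was widest on lovastatin replicate 1 (SD 1.09, against 0.419 to 0.725 on the other 5 arrays). On HFC replicate 2, 4 of 8 blocks of spot positions, holding 50.3% of the probes used, were displaced. They were nearly uncorrelated (-0.03 to 0.03) with the mean of the other arrays, taken without lovastatin replicate 1. The blocks that were not displaced correlated at 0.18 to 0.33. When each displaced block was rotated along its rows, its correlation reached 0.297 to 0.311. The values of HFC replicate 2 in these displaced blocks were left out. Krt23 and Krt8 lie in them, and their values with the blocks put back are given beside the others.

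The promoters of Krt23 and Prom1 are shown because these genes had the highest ratios of the 8. Each sequence is the 250 bases before a RefSeq start site in build GRCm38.p6, read 5′ to 3′ on the gene's own strand, which is the minus strand for both. Capitals mark matches to the letters searched.

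Krt23, chr11:99493121-99493370: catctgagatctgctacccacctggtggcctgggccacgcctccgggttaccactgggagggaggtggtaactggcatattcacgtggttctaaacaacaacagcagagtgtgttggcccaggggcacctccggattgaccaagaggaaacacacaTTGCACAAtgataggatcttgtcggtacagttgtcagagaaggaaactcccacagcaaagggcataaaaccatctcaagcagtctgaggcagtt
Prom1, downstream start, chr5:44094769-44095018: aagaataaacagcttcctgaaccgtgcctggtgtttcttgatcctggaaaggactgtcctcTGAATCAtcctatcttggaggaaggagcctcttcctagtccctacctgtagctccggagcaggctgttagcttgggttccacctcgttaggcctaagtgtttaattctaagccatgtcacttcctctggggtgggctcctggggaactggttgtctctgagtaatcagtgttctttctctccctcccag
Prom1, upstream start, chr5:44101737-44101986: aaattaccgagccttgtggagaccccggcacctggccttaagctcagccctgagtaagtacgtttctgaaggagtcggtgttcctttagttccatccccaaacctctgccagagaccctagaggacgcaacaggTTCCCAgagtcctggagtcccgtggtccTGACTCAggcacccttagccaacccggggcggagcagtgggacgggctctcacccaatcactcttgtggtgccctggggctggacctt

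The Krt23 window held 1 match, TTGCACAA, from -94 to -87 relative to the start site, to the C/EBP letters TTGCNNAA, which 9.56% of the 32851 promoters in the RefSeq table hold. Both Prom1 windows held an AP-1 match (TGANTCA, in 6.75% of promoters). It was TGAATCA with its last base at -183 at the downstream start and TGACTCA from -88 to -82 at the upstream start. The upstream window also held TTCCCA from -116 to -111, the reverse strand of the RBPJ letters TGGGAA (21.6% of promoters), and no matches overlapped. None of the 3 windows held the other 8 motifs searched on both strands. These were TEAD (GGAATG, 12.6% of promoters), SOX (ACAAAG, 16.5%), STAT (TTCNNNGAA, 7.02%), a TATA box (TATAAA, 12.4%), the full HNF1 palindrome (0.00913%), the PPAR site DR1 and the LXR site DR4, both direct repeats of AGGTCA (0.0335% and 0.0152%), and the FXR site IR1, an inverted repeat of AGGTCA (0.00609%). A match is a string of letters, not a site shown to be bound, and a missing match covers these letters in these windows only.

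Krt23, a type I keratin that is low in resting liver and known to be induced in stressed mouse liver, lay far above the chow pool on every array with a value. Its log2 ratio was 3.34 and 2.83 in fenofibrate mice, 2.27 and 1.65 in lovastatin mice and 1.76 in HFC replicate 1. With the displaced block put back, HFC replicate 2 had 2.10, and the value deposited at that spot is 0.29. In linear terms the ratios ran between 3.14 and 10.1 on the 5 arrays. Both fenofibrate mice were above every lovastatin and HFC mouse, while lovastatin and HFC mice overlapped. Krt23 ranked 2 and 4 from the top among named genes on the fenofibrate arrays, 555 and 40 on the lovastatin arrays and 34 on HFC replicate 1.

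Prom1 encodes prominin-1 (CD133), a membrane protein of cell protrusions that marks bile duct and progenitor cells in liver. Its log2 ratio was 1.78 and 1.60 in fenofibrate mice, 2.47 and 2.0 in lovastatin mice and 2.23 and 1.17 in HFC mice. All 6 values were above 1, and the HFC mice, which stood farthest apart, enclosed both fenofibrate mice and lovastatin replicate 2. The group means were 1.69 ± 0.13 with fenofibrate, 2.24 ± 0.33 with lovastatin and 1.70 ± 0.75 with HFC (SD, n = 2 each). Prom1 ranked 39 and 156 from the top on the fenofibrate arrays, 401 and 20 on the lovastatin arrays and 12 and 249 on the HFC arrays, the last among the named genes that kept a value there. A log2 ratio above 1 on every array was found for 19 of 19078 features (0.0996%, or 0.0774% with the displaced blocks put back), and both Krt23 and Prom1 were among them.

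**Figure D1:**
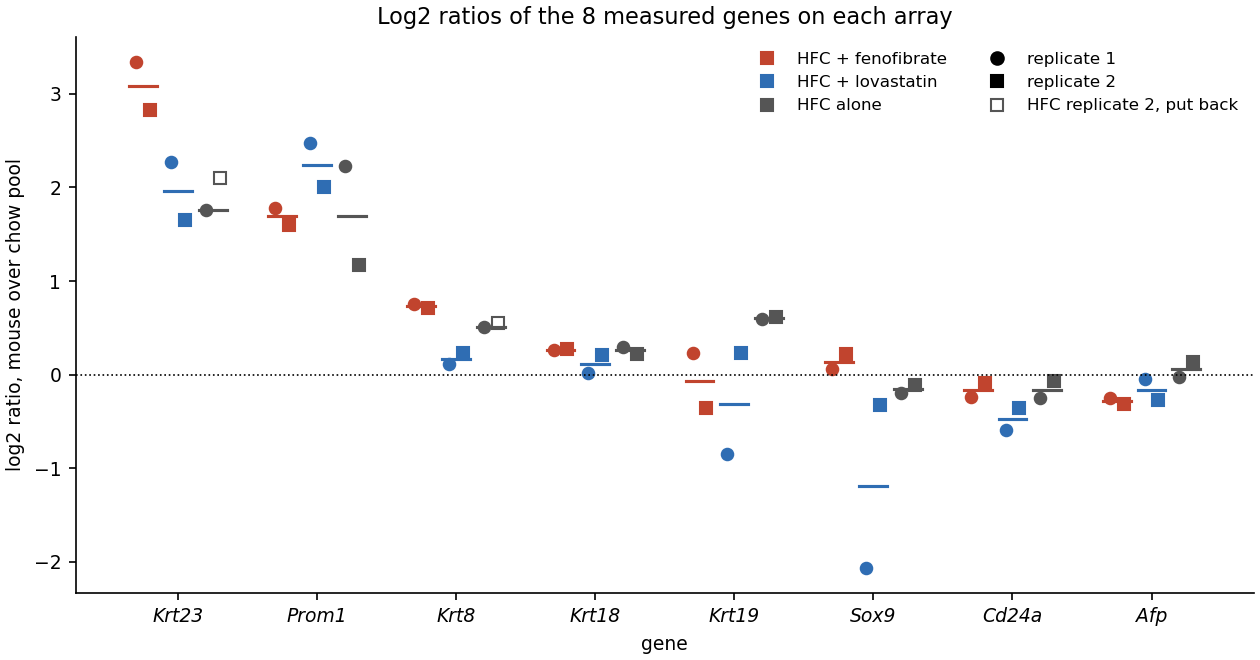
Log2 ratio of mouse over chow pool (vertical axis) for each of the 8 measured genes (horizontal axis). Points are single mice in the fenofibrate, lovastatin and HFC groups, short lines are group means, and open squares are HFC replicate 2 values put back from displaced blocks, which are not in the means. Krt23 and Prom1 lie above 1 on every array, the other 6 genes lie below 1 throughout, and the lowest point is Sox9 in lovastatin replicate 1 at -2.06.

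The simple-epithelium keratins had much smaller ratios. Krt8, the type II keratin of hepatocytes, had a log2 ratio of 0.75 and 0.71 in fenofibrate mice, 0.11 and 0.23 in lovastatin mice and 0.51 in HFC replicate 1, with 0.55 in HFC replicate 2 when put back. On these values the fenofibrate mice were highest and the lovastatin mice lowest, with no overlap between any of the 3 groups. The value deposited at the Krt8 spot of HFC replicate 2 is 0.99, above both fenofibrate mice. Krt18, the type I partner of Krt8, had 0.26 and 0.27 in fenofibrate mice, 0.02 and 0.21 in lovastatin mice and 0.30 and 0.22 in HFC mice. All 6 Krt18 values were above 0, and the HFC mice enclosed the fenofibrate mice. Both keratins were above 0 on every array with a value, as were 7.23% of all features (5.97% with the blocks put back).

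Krt19, the type I keratin of bile duct cells, did not share one direction across mice. Its log2 ratio was 0.23 and -0.36 in fenofibrate mice, -0.85 and 0.23 in lovastatin mice and 0.59 and 0.62 in HFC mice. Both HFC mice were above all 4 drug-treated mice, and the drug groups overlapped each other on either side of 0. How many of all features have groups apart in such a way was not counted, for Krt19 or the other measured genes.

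Sox9, a transcription factor of bile duct cells, had a log2 ratio of 0.06 and 0.22 in fenofibrate mice, -2.06 and -0.32 in lovastatin mice and -0.20 and -0.11 in HFC mice. Only the fenofibrate mice were above the pool, and the lovastatin mice were below all others. The value of -2.06 is on the array with the widest spread, where it lies 1.96 SDs from 0, with the SD taken over named genes. The other 5 values lay between -0.32 and 0.22. Cd24a, a surface glycoprotein of progenitor and bile duct cells, was slightly below the pool on all 6 arrays. It had -0.24 and -0.09 in fenofibrate mice, -0.59 and -0.36 in lovastatin mice and -0.25 and -0.07 in HFC mice. A value below 0 on every array was found for 7.12% of features (5.92% with the blocks put back). Afp, alpha-fetoprotein, the main serum protein of fetal liver, had -0.25 and -0.31 in fenofibrate mice, -0.05 and -0.27 in lovastatin mice and -0.02 and 0.14 in HFC mice. The HFC mice had the highest Afp values and the drug groups overlapped.

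To set the genes in order against the chow pool, the 3 groups were combined with each dye orientation given equal weight, 0.5 for fenofibrate and 0.25 each for lovastatin and HFC. Any effect of a drug is therefore part of this ratio, with the largest weight for fenofibrate. This dye-balanced log2 ratio was 2.47 (SE 0.17) for Krt23 and 1.83 (SE 0.18) for Prom1, or 5.55 and 3.55 times the pool. Next were Krt8 at 0.54 (SE 0.12), 1.45 times the pool, Krt18 at 0.23 (SE 0.10) and Krt19 at 0.04 (SE 0.19). Afp was at -0.17 (SE 0.11), Cd24a at -0.24 (SE 0.11) and Sox9 at -0.27 (SE 0.25). Neighbours in this order overlapped in their values over arrays, except Prom1 and Krt8, a gap that the choice of Prom1 for its high ratio fixes. Sox9 was at -0.05 without lovastatin replicate 1, above Afp (-0.19) and Cd24a (-0.21). Among 16823 named genes, Krt23 ranked 2 from the top, Prom1 17, Krt8 681 and Krt18 3278. Krt19 ranked 7584, near the middle, and the other 3 ranked below it.

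In that combination 2 of the 8 genes, Krt23 and Prom1, passed a limma adjusted p of 0.05, both above the pool, against 0.567% of all features (0.17% above and 0.397% below). Nothing is read from this count, since these 2 genes were chosen on the same ratios. That count was not stable when 1 mouse was left out. Without HFC replicate 1, Krt23 had no HFC value and was not fitted. Where it was fitted, the ratio of Krt23 stayed between 2.35 and 2.60, and that of Prom1 stayed between 1.70 and 1.96. If the fenofibrate arrays were read with the opposite sign, Krt23 would be at -0.61 and Prom1 at 0.14, and Krt8 (-0.20), Krt18 (-0.04) and Afp (0.12) would also change sign. The median of the 8 genes was 0.13, against 0.01 over all features.

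The study's question for the drugs was how each changed liver expression on the diet. The fenofibrate and lovastatin comparisons share the 2 HFC mice. limma called 0 of 19418 features for fenofibrate against HFC, 0 of 19439 for lovastatin against HFC and 0 of 19422 for fenofibrate against lovastatin (0% each). At an unadjusted p under 0.05 the counts were 551 (2.84%), 381 (1.96%) and 1067 (5.49%). Of the 8 genes, 1, 0 and 1 were below that unadjusted level, in each case Krt23. The p-values measure the spread between these few mice only.

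Krt23 averaged 3.09 ± 0.36 in fenofibrate mice (SD, n = 2), against 1.76 in the single HFC mouse with a value. The difference was 1.33 with a 95% interval of 0.10 to 2.55 and a limma adjusted p of 1. With HFC replicate 2 put back, the HFC mean was 1.93 ± 0.24 and the difference 1.16 (0.29 to 2.02), with a limma adjusted p of 0.999, and as deposited the difference was 2.06. Against lovastatin mice (1.96 ± 0.44, n = 2), fenofibrate mice were higher by 1.13 (0.13 to 2.12), with a limma adjusted p of 0.702. Neither difference passed after adjustment, and both are between dye orientations. Lovastatin against HFC, within 1 dye orientation, differed by 0.20 (-1.02 to 1.42, limma adjusted p = 0.982). That difference was -0.11 without lovastatin replicate 1 and -0.66 after quantile normalization.

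Prom1 had no interval clear of 0. Its difference was -0.01 (-1.08 to 1.06) for fenofibrate against HFC, 0.54 (-0.53 to 1.60) for lovastatin against HFC and -0.55 (-1.61 to 0.52) for fenofibrate against lovastatin. The second was 1.07 without HFC replicate 1 and 0.005 without HFC replicate 2, and after quantile normalization the second and the third changed sign, to -0.08 and 0.10. Each interval holds both a doubling or halving and no change at all, so the arrays cannot tell these apart for Prom1. Krt8 was higher in fenofibrate than in lovastatin mice by 0.56 (-0.13 to 1.25), with a limma adjusted p of 0.702. Its differences from HFC were 0.22 (-0.63 to 1.07) with fenofibrate and -0.34 (-1.19 to 0.51) with lovastatin. Krt18 differed by 0.15 or less in every drug comparison, with intervals reaching 0.60 to 0.75 at their farther end.

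Krt19 differed from HFC mice by -0.67 (-1.78 to 0.44) with fenofibrate and by -0.92 (-2.02 to 0.19) with lovastatin, and neither difference passed. The lovastatin difference was -0.38 without lovastatin replicate 1 and -1.46 without replicate 2, and the fenofibrate difference ran from -0.97 to -0.38 when 1 mouse was left out. Sox9 differed by 1.33 (-0.13 to 2.79) between fenofibrate and lovastatin mice and by -1.04 (-2.50 to 0.43) between lovastatin and HFC mice. Those values rest on lovastatin replicate 1, since without it they were 0.46 and -0.17. Without lovastatin replicate 2, which leaves the wide array alone in its group, they were 2.20 and -1.91, with limma adjusted p of 0.0163 and 0.027, where the lone array is assumed to vary like the other groups. Cd24a and Afp differed by 0.34 or less in size in the 3 comparisons. Over the 8 genes the limma adjusted p was 1 for fenofibrate against HFC, 0.973 to 0.982 for lovastatin against HFC and 0.702 to 0.864 for fenofibrate against lovastatin.

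**Figure D2:**
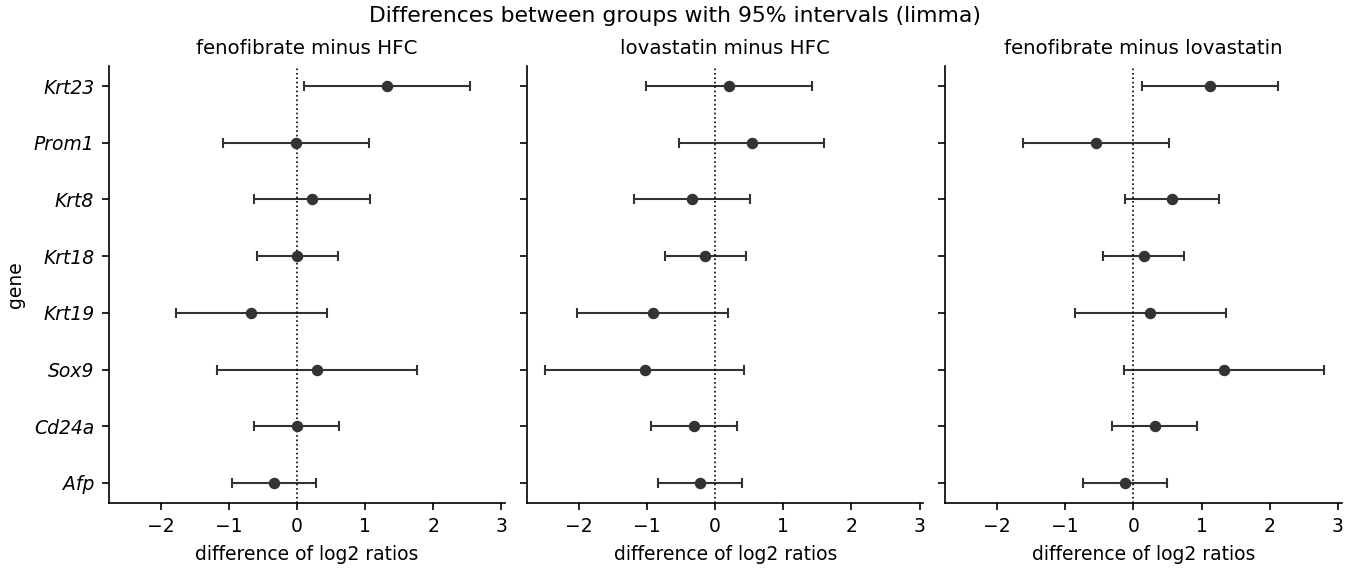
Differences of log2 ratios between groups (horizontal axis) for the 8 genes (vertical axis), with fenofibrate minus HFC, lovastatin minus HFC and fenofibrate minus lovastatin in separate panels. Points are limma estimates and bars 95% intervals. The interval of Krt23 lies above 0 in both panels with fenofibrate, and every other interval crosses 0.

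Lists of genes that share a role with the 8 were read in the dye-balanced ratio against the chow pool, where the median of all features is 0.01. In that ratio 0.567% of all features passed limma's adjusted threshold, so a count of 0 in any list of this size shows nothing about it. Of 21 measured cholangiocyte markers, 10 were above 0 and 11 below, with a median of -0.03, and 0 passed limma's adjusted threshold. Among them the duct keratin Krt7 was at 0.02 and the epithelial adhesion protein Epcam at 0.03. The largest ratios were those of Pkhd1, the fibrocystin gene (0.42), Cldn6, a tight junction protein (0.39), the water channel Aqp1 (-0.36) and the sodium pump subunit Atp1b1 (0.36). The Cldn6 value comes from lovastatin replicate 1 at 4.19, with -0.32 to 0.02 on the other 5 arrays. Without that array Cldn6 was at -0.13, Krt7 at -0.01 and Epcam at -0.12, and 6 cholangiocyte markers were above 0 and 15 below. With the fenofibrate sign turned, 15 were above and 6 below (median 0.07). Ratios to a pool carry no level, so whether each marker was present at all could not be read.

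Among 18 progenitor and fetal liver genes, 13 were above 0 and 5 below, with a median of 0.13, and 0 passed. Tnfrsf12a, the TWEAK receptor of the progenitor response, was at 0.99 (SE 0.15, limma adjusted p = 0.125). Its values were 0.64 and 1.15 in fenofibrate mice, 1.32 and 1.01 in lovastatin mice and 0.99 in HFC replicate 1, with -0.02 in HFC replicate 2 put back. Lgr5, a WNT target of central-vein hepatocytes and injury-induced progenitors, was at -0.93 (SE 0.16, limma adjusted p = 0.114), and it fell past the threshold without lovastatin replicate 1. Igf2bp3, a fetal RNA-binding protein, was at 0.58, a value set by fenofibrate replicate 2 (2.81, against 0.18 or less on the other 4 arrays with a value), and Icam1 was at 0.28.

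The other keratins had lower ratios than Krt23, from which nothing is read, since Krt23 was chosen for its high ratio. Over all 42 keratins named on the array, a list added after the values were seen, 21 were above 0 and 21 below, with a median of 0.00 and a range of -0.43 (Krt12) to 2.47 (Krt23). Krt20, an intestinal keratin, came next at 0.75. Its values were 0.87 and 2.38 in fenofibrate mice, against -0.56 and -0.02 in lovastatin mice and -0.06 and 0.13 in HFC mice, and no comparison of it passed. Of the 24 listed keratins, desmosome and plakin partners, 9 were above 0 and 15 below and 0 passed. The desmosomal plakin Dsp was at 0.32 and periplakin (Ppl) at 0.34.

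Genes known from keratin aggregates (Mallory-Denk bodies) or the stress response around them were mostly above the pool, 10 of 12, with a median of 0.29, and 1 of them rose, where 0.17% of all features did. This was Gclc, the catalytic subunit of glutathione synthesis, at 1.40 (SE 0.13, limma adjusted p = 0.0295). It had 1.51 and 1.35 in fenofibrate mice, 1.20 and 1.63 in lovastatin mice and 1.57 and 1.06 in HFC mice, so all 6 mice stood above 1. Sqstm1 (p62), the aggregate adaptor protein, was at 0.61 (limma adjusted p = 0.112), Hspb1, a small heat shock protein, at 0.69 (0.0857 by the same test), and the co-chaperone Bag3 at 0.57. Gclc did not pass without HFC replicate 2 or after quantile normalization. Nor did it with either fenofibrate mouse left out or with replicate number added to the fit, where no feature passed. With the fenofibrate sign turned, 8 of the 12 were above 0 and 0 passed.

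Partners and upstream pathways of the 8 genes had medians near 0. Among 14 osteopontin receptors and matrix partners, 10 were above 0 and 4 below (6 and 8 with the fenofibrate sign turned), with 0 past the threshold. Itga8 and Itgb3, 2 integrin chains, were at -0.48 (-0.28 without lovastatin replicate 1) and -0.44, fibronectin (Fn1) at -0.34 and the protease inhibitor Timp1 at 0.82, with -1.77 in lovastatin replicate 1 and 0.55 to 2.37 on the other 4 arrays with a value. Of 14 Notch pathway genes with a ratio, 7 were above 0 and 7 below and 0 passed, and the counts were 10 and 4 without lovastatin replicate 1 but 4 and 10 with the fenofibrate sign turned (median -0.15, against 0.07). The receptor Notch1 was at 0.84, and of the Notch targets Hes1 was at 0.83, Hey1 at 0.38 and Hey2 at -0.39 (-0.10 without lovastatin replicate 1).

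Of 19 YAP and TEAD targets, 8 were above 0 and 11 below, and 0 passed. Ccn2 (connective tissue growth factor) was at -1.11 (limma adjusted p = 0.075), and at -1.02 with the displaced blocks put back (limma adjusted p = 0.0481). It had -1.50 and -1.47 in fenofibrate mice and -0.99 and -1.27 in lovastatin mice. HFC replicate 1 had -0.32, and HFC replicate 2 put back had 0.36. With the fenofibrate sign turned Ccn2 was at 0.38. Birc5 (survivin) was at 1.12, Ajuba at 0.59 and Tead1 at -0.41 (-0.15 without lovastatin replicate 1). Without lovastatin replicate 1, Birc5 passed above the pool and Ccn2 below it. Of 22 hepatocyte injury and stress genes, 12 were above 0 and 10 below (17 and 5 with the fenofibrate sign turned), and 0 passed. The largest ratios were those of the metallothioneins Mt2 (-1.90) and Mt1 (-1.20), the stress-induced Gadd45b (1.62) and the cell cycle inhibitor Cdkn1a (1.30), with a limma adjusted p of 0.0761 for Cdkn1a. In the HFC mice Mt2 had -1.04 and 1.56, and Mt1 had -0.05 and 1.08. In the drug-treated mice Mt2 ran from -4.20 to -1.75 and Mt1 from -2.91 to -1.27. In this list Anxa2 passed only with the blocks put back and Cdkn1a only without lovastatin replicate 1, among the settings given for lists.

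Markers of other liver cell types were read beside these values. Of 12 hepatocyte markers, 10 were below the pool and 2 above, with a median of -0.60, and Ahsg, a secreted glycoprotein, fell (-1.26, limma adjusted p = 0.0455), as did 0.397% of all features. Ahsg had -1.55 and -2.23 in fenofibrate mice, -0.48 and -0.70 in lovastatin mice and -0.86 and -0.50 in HFC mice. Ahsg did not pass with the displaced values as deposited or without HFC replicate 2. Nor did it with either fenofibrate mouse left out or with replicate number added to the fit, where no feature passed. With the fenofibrate sign turned, 9 of the 12 markers were above 0 and 0 passed. The hepatocyte medians were -0.56 and -0.98 on the fenofibrate arrays, -0.49 and -0.57 on the lovastatin arrays and -0.50 and -0.14 on the HFC arrays. The plasma protein Ttr was at -0.98, the amino acid enzyme Tat at -1.06 and the urea cycle enzyme Ass1 at -0.81, with limma adjusted p of 0.0815 to 0.133. With the displaced blocks put back, Ttr passed (limma adjusted p = 0.0206) and Tat and Ass1 did not. The medians of the other lists were -0.10 for stellate cells, -0.02 for macrophages, -0.04 for endothelial cells, -0.24 for lymphocytes and 0.06 for neutrophils, and 0 of their genes passed (1, the macrophage gene Gpnmb, after quantile normalization). With the fenofibrate sign turned, the stellate and macrophage medians were 0.23 and 0.20, with 11 and 12 of 14 genes above 0. The medians for lymphocytes and neutrophils then were 0.10 and -0.08, and for endothelial cells 0.03. The part of these shifts in the ratios of Krt23 and Prom1 was not tested. No gene of any list passed in a drug comparison by limma. Since 0 of all features passed there, the same holds for any list and shows nothing about these.

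**Figure D3:**
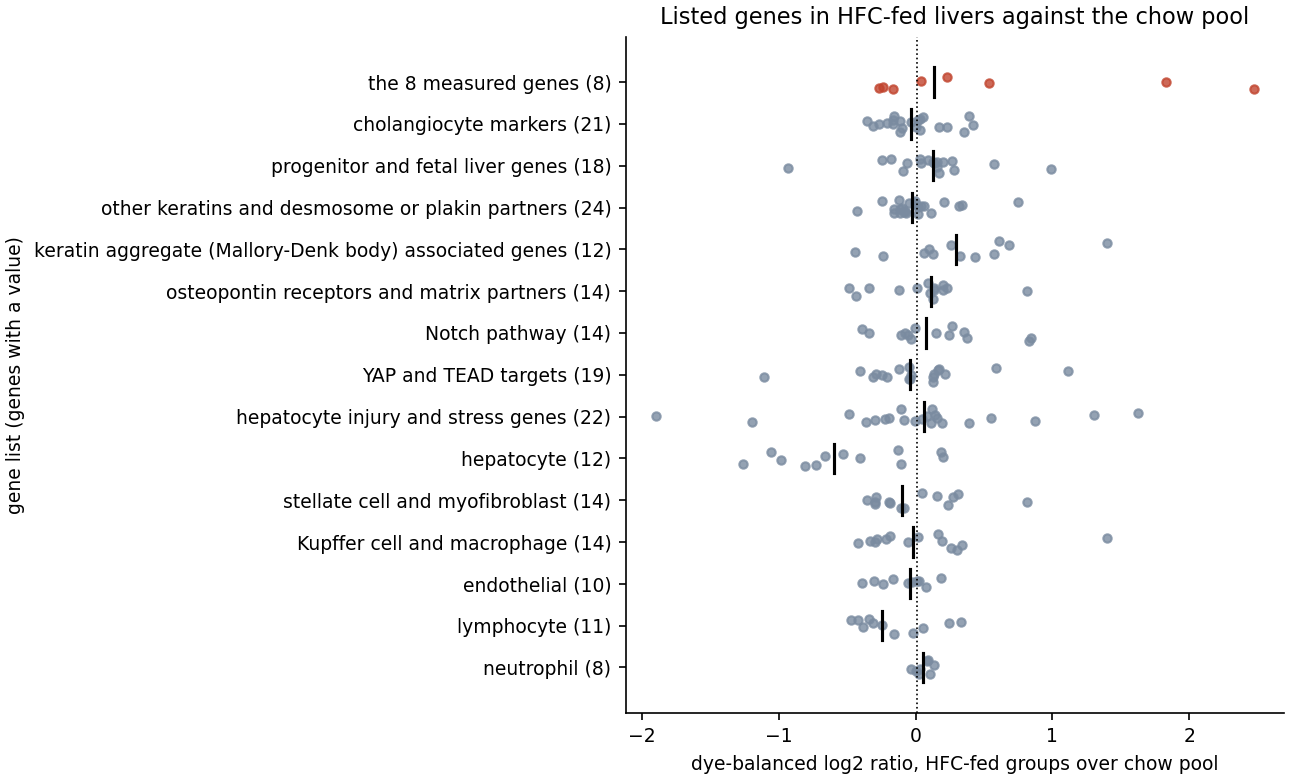
Dye-balanced log2 ratio of the HFC-fed groups over the chow pool (horizontal axis) for the genes of each list (vertical axis, genes with a value in brackets). Points are genes and short bars list medians, with the 8 measured genes in red. Krt23 at 2.47 and Prom1 at 1.83, which were chosen for high ratios, lie to the right of every listed gene. The hepatocyte list has the lowest median at -0.60.

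The genes with profiles most like that of Krt23 were sought by the root mean square difference of log2 ratio over the arrays on which both had a value, at least 5. Among 16371 genes the nearest were Cyp4a14, a fatty acid omega-hydroxylase (0.33), Rad51b, of DNA recombination (0.34), Spc25, a kinetochore protein (0.40), Fabp2, a fatty acid binding protein (0.54), and Acot1, an acyl-CoA thioesterase (0.68). Cyp4a14 had 2.98 and 2.54 in fenofibrate mice, 2.29 and 1.94 in lovastatin mice and 1.28 in HFC replicate 1. Acot1 had the same order of groups only in part, with 3.76 and 4.05 in fenofibrate mice, 1.89 and 1.63 in lovastatin mice and 2.48 and 1.48 in HFC mice. Cyp4a14, Rad51b and Spc25 lie in displaced blocks, and put back they had 0.58, 0.12 and 1.31 in HFC replicate 2, against 2.10 for Krt23.

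Prom1 was nearest to Tmem141 (0.59), the glutathione transferase Gsta4 (0.61), Gclc (0.62), Spc25 (0.63) and the glutathione transferase Gstm3 (0.66), among 16583 genes over 5 or 6 arrays. Gstm3 had 2.20 and 2.18 in fenofibrate mice, 1.31 and 2.36 in lovastatin mice and 2.67 in HFC replicate 1. On lovastatin replicate 1, where Prom1 had 2.47, each of the 5 was lower, between 1.13 and 2.09. Krt23 and Prom1 were not among each other's nearest genes, with a difference of 0.93 that put Prom1 in place 13 for Krt23 and Krt23 in place 41 for Prom1. Spc25 was the only gene near both. These likenesses describe 5 or 6 mice, and the measure counts the height of the ratios as well as their order.

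**Figure D4:**
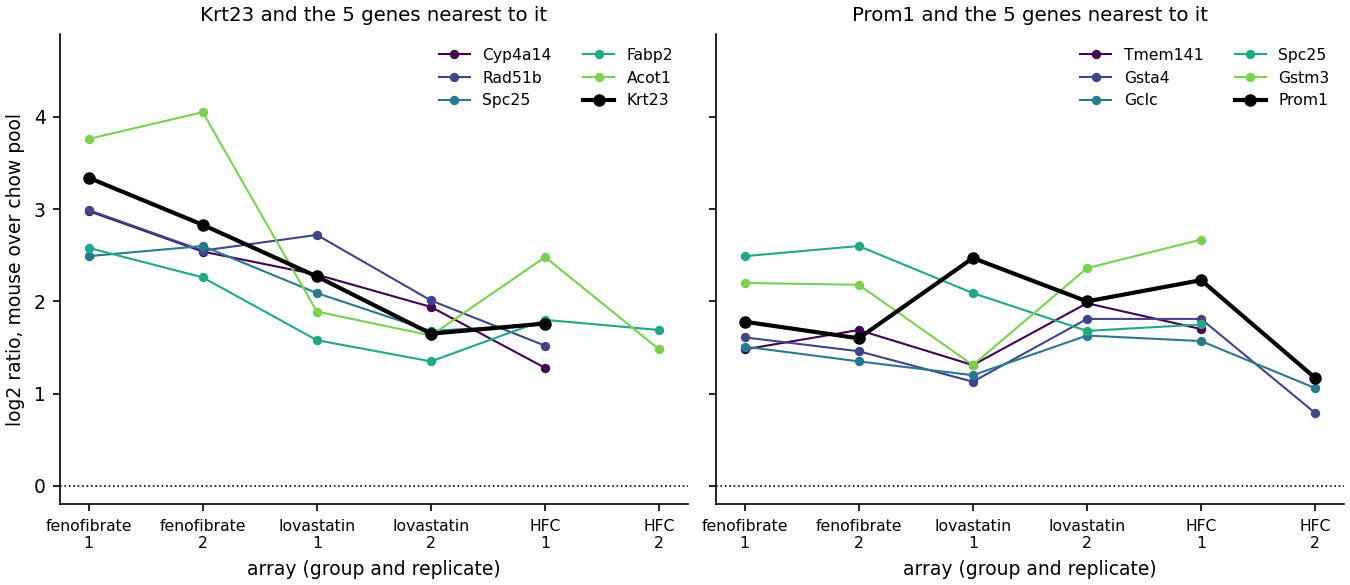
Log2 ratio of mouse over chow pool (vertical axis) on each array (horizontal axis) for Krt23 and its 5 nearest genes (left) and for Prom1 and its 5 nearest genes (right). Lines join the values of 1 gene, and values from displaced blocks are left out. Krt23 and most of its neighbours are highest on the fenofibrate arrays, whereas Prom1 is highest on lovastatin replicate 1 at 2.47.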

How the data were processed

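Each spot of an array has 1 deposited value, made by the authors and read as a log2 ratio of mouse over chow pool. How it was scanned, background-corrected and normalized is not given in the sources used here. The log base is not stated: a control at -9.71 exceeds what 16-bit signals allow on a log10 scale (4.82), and base 2 was taken by convention. Per the labels, 0.5 µg of total RNA was labelled by linear amplification. Without intensities, dim probes could not be set aside, and precision is limited by the number of arrays.

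Of 22575 spots, 726 had no value and 561 repeated control spots were left out, leaving 21288 probes. The platform annotation gave 18658 probes 1 gene, 30 several and 3887 none. Probes of a gene were averaged (1247 genes), and 2630 unnamed probes kept, giving 19517 features. Displaced blocks of HFC replicate 2 were set beforehand by spot position. To put them back, each was rotated within its 27 positions of the 215-position rows. The rotation used was the best match to the mean of the other arrays, taken without lovastatin replicate 1.

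Group means were fitted with limma 3.58.1 (R 4.3.3), with Benjamini-Hochberg adjustment over all features. The fit was tested on simulated data. Likeness used at least 5 arrays. Figures used matplotlib 3.10.9, with pandas 2.3.3. The genes and lists were chosen with earlier results of these data known. Named list genes are those past the threshold plus up to 4 with the largest dye-balanced ratio, and Krt7 and Epcam, which were named after their values were seen. Anxa2, Gstm3 and other genes named as nearest or as passing under 1 setting follow from those rules. Replicate numbers do not pair the mice. Deviations of same-numbered mice correlated at -0.02 to 0.03 between groups. Sequences are from RefSeq, and 6 of the 8 genes have a promoter in that table.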

Additional observations from a re-analysis of the deposited data

Results flagged for a closer look

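Sox9 stood out because both fenofibrate mice lay above the chow pool (0.06 and 0.22) while both lovastatin mice (-2.06 and -0.32) and both HFC mice (-0.20 and -0.11) lay below it. The fenofibrate and HFC values lie close to the pool, at -0.49 to 0.39 array SDs taken over named genes. How many of all features split around the pool in this way was not counted. The difference was 1.33 between fenofibrate and lovastatin mice (limma adjusted p = 0.702) and 0.295 between fenofibrate and HFC mice (limma adjusted p = 1), so neither passed the test. Dye and drug cannot be told apart in either, and without lovastatin replicate 1 the first was 0.46. With the fenofibrate sign turned, all 6 mice lie below the pool and the second is 0.015.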

How the results depend on the processing

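The dye-balanced count of 110 features past the threshold was 67 with the displaced values as deposited, 191 with them put back, 196 after quantile normalization, 346 without the noisiest 10% of features, and 258 with the blocks put back and lovastatin replicate 1 left out, a setting chosen after seeing the data. It was 0 with the replicate block and 0 with the fenofibrate sign turned, and the 2 of 8 genes became 0 in both. The replicate block adds replicate number to the fit. Since that number does not pair the mice, the block is an arbitrary label that leaves fewer degrees of freedom. Under the replicate block Krt23 was at 2.40 and Prom1 at 1.83. Turning the fenofibrate sign gave 37 features for fenofibrate against HFC and 60, with 1 of the 8 genes (Krt23), for fenofibrate against lovastatin. Leaving out each mouse gave 0 to 962 features and 0 to 2 genes in the dye-balanced ratio. It gave 0 to 1381 features and 0 to 1 gene for lovastatin against HFC, and 0 to 2205 features and 0 to 1 gene for fenofibrate against lovastatin. The highest counts of features came without lovastatin replicate 2, where the gene is Sox9, lower in lovastatin mice. The other counts were 229 without lovastatin replicate 1, 5 and 25 without HFC replicates 1 and 2, and 0 without either fenofibrate mouse.

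Some signs depended on the setting. As deposited, Krt8 for fenofibrate against HFC was -0.02. Median centring gave 0.01 for Cd24a and 0.005 for Prom1 in that comparison, and quantile normalization gave 0.0258, -0.00917 and 0.0147 for Cd24a, Krt18 and Prom1. Quantile normalization also gave -0.66 and -0.0842 for Krt23 and Prom1 in lovastatin against HFC and 0.10 for Prom1 in fenofibrate against lovastatin. With the fenofibrate sign turned, the differences from HFC were -4.85 for Krt23, -1.24 for Krt8, -0.53 for Krt18, 0.33 for Cd24a and 0.22 for Afp. Those from lovastatin were then -5.05 for Krt23, -0.90 for Krt8, -0.38 for Krt18 and 0.44 for Afp, and in the dye-balanced ratio Krt23 was at -0.61, Krt8 at -0.20, Krt18 at -0.04 and Afp at 0.12. With the blocks put back and lovastatin replicate 1 left out, Krt23 was at -0.28 for lovastatin against HFC and Krt19 at -0.30 for fenofibrate against lovastatin. Leaving out each mouse, fenofibrate against HFC ran from -0.095 to 0.085 for Cd24a, -0.035 to 0.045 for Krt18 and -0.54 to 0.52 for Prom1. For lovastatin against HFC Prom1 ran from 0.005 to 1.07 and Krt19 from -1.46 to -0.38. Krt23 ran from -0.11 to 0.51 for lovastatin against HFC, Krt19 from -0.30 to 0.79 for fenofibrate against lovastatin and from -0.11 to 0.19 in the dye-balanced ratio. The cause of these changes was not tested. Without HFC replicate 1, Krt23 and Krt8 could not be fitted against HFC or in the dye-balanced ratio. No fit on the compared arrays alone exists for the dye-balanced ratio.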
